A study of Mus musculus with 12 samples.

Results

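The 39 genes described here are grouped by role as origin licensing (13 genes), replication fork (22 genes) and nucleotide supply (4 genes). The deposited count table holds 47517 gene symbols. The licensing group also takes in the E-type cyclins Ccne1 and Ccne2, which activate Cdk2 at the start of S phase. All 39 genes were listed by name from their known roles, with earlier results of these data known, and all passed the filter on low counts. RNA was measured by sequencing of ribosome-depleted total RNA in mouse embryonic fibroblasts (MEFs) from C57BL/6 embryos, immortalised with the SV40 large T antigen, a viral protein that binds the retinoblastoma family and p53. The floxed genes are Ssb1, listed under the symbol Nabp2, and Ssb2, listed as Nabp1; their proteins bind single-stranded DNA, and all groups carry the floxed alleles, Cre-negative cells included. The cells either carried RosaCreERT2, a Cre recombinase fused to a modified oestrogen receptor and driven from the Rosa locus, or were Cre-negative. The 6 groups of 2 libraries were Cre-positive cells given 4-hydroxytamoxifen (4-OHT, which activates CreERT2) for 5 days, Cre-positive cells given ethanol (the vehicle) for 5 days, Cre-positive untreated cells, and the same 3 treatments of Cre-negative cells. Libraries are numbered 1 to 12 as in the labels, which do not state separate cultures for the pair in a group or the number of embryos behind each line. The p-values therefore reflect only how far these libraries scatter, possibly for technical reasons, and Cre cannot be told apart from other differences between the lines.

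Replication begins with the origin recognition complex, on which Cdc6 and Cdt1 load the MCM2-7 helicase as an inactive ring. Cdc45, the GINS complex and Mcm10 turn that ring into a moving helicase, after which DNA polymerase alpha with its primase lays primers, the clamp loader RFC places the sliding clamp PCNA, and polymerases delta and epsilon copy the strands. Many of these genes are transcribed under E2F factors as cells enter S phase, so their RNA is commonly read as a sign of cycling cells.

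Totals ran from 20201855 to 36367012 counts per library, and the lowest count of any member in any library was 93. Both targets were lowest after 4-OHT in Cre-positive cells: Nabp2 was at 4.84 and 5.09 CPM (counts scaled to library size) there, against 19.8 and 22.6 CPM with ethanol, and Nabp1 was at 3.40 and 3.96 CPM, against 14.5 and 15.9 CPM. Summed, the targets averaged 37.3 CPM in untreated and 36.4 CPM in ethanol Cre-positive cells. The Cre-negative groups averaged 51.8 to 55.7 CPM, so the lines differed in target RNA without 4-OHT too. Among fibroblast markers Vim (3245 to 4126 CPM over the 12 libraries) and Col1a1 (249 to 744 CPM) were high, while Thy1, Dcn and Lum stayed under 1 CPM. Epithelial, haematopoietic and endothelial markers summed to at most 2.94, 4.79 and 2.06 CPM in any library. Neural markers summed to 142 to 187 CPM, of which Nes held at least 65.7 CPM and Map2 at least 28.3 CPM in each library, with Gfap and Rbfox3 at or near 0. Mitochondrial genes took 1.47% to 2.22% of the counts.

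In Cre-positive cells, 4-OHT against ethanol lowered the RNA of 17 of the 39 members and raised that of 3, at an adjusted p under 0.05 in edgeR's quasi-likelihood test over 17609 genes. Of all genes tested, 17.2% were called lower and 21.1% higher in that comparison, 38.3% in either direction. The share of members called lower, 43.6%, was thus above that of all genes, and the share called higher, 7.69%, was below it. The members' median change was -0.11 on the log2 scale, beside 0.03 over all genes tested. In the CPM values, both 4-OHT libraries lay below both ethanol libraries for 20 members and above them for 4, and the groups overlapped for 15. That is 51.3% of members below and 10.3% above, beside 30.6% below and 36.9% above over all genes tested. In Cre-negative cells the same count was 14 members below (35.9%) and 6 above (15.4%), beside 25.7% and 25.3% over all genes. In these bulk libraries, fewer cells in S phase and less RNA per cell cannot be told apart.

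**Figure D1:**
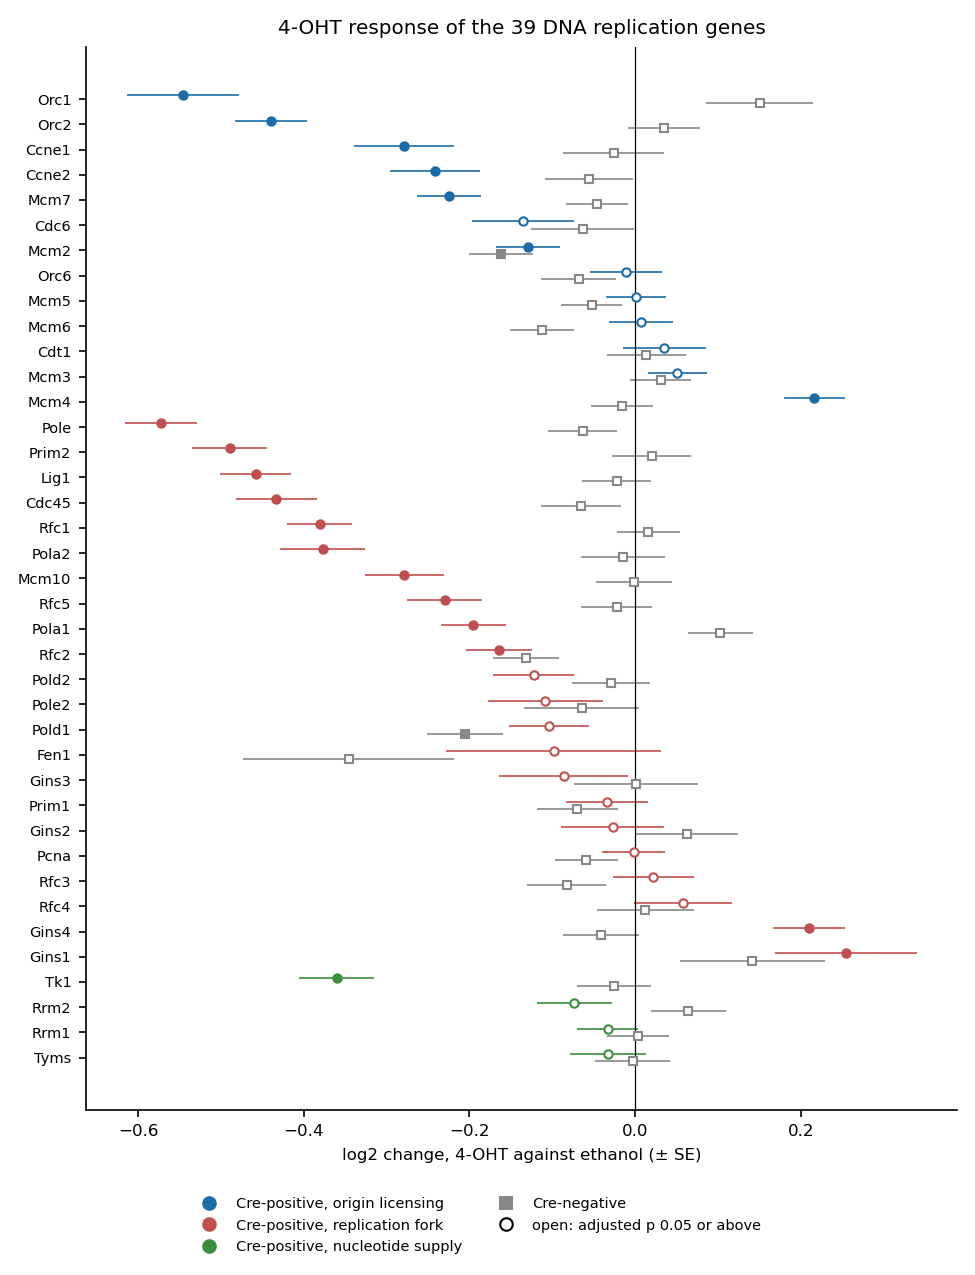
Change of each of the 39 members on the log2 scale (x axis, ± SE) with 4-OHT against ethanol, in Cre-positive cells (coloured circles, by role) and Cre-negative cells (grey squares), 2 libraries per group; filled symbols have an adjusted p under 0.05. In Cre-positive cells 17 filled circles lie left of 0 and 3 right of it, and in Cre-negative cells 2 squares are filled, Mcm2 and Pold1.

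Of the 13 origin licensing genes, 6 fell and 1 rose with 4-OHT against ethanol in Cre-positive cells. Over all genes tested, 17.2% were lower and 21.1% higher there. Orc1, the largest subunit of the origin recognition complex (chr4:108579423-108614833, GRCm38), was at 16.8 and 16.0 CPM with 4-OHT in Cre-positive cells, against 23.8 and 24.1 CPM with ethanol. On the log2 scale Orc1 fell by 0.55 (SE 0.0673, adjusted p = 1.91e-06), and the groups did not overlap. Cre-negative libraries held 29.0 and 28.4 CPM of Orc1 with 4-OHT, against 25.8 and 25.9 CPM with ethanol, a change of 0.15 (SE 0.0642, adjusted p = 0.186). Orc2, another subunit of the complex, was at 71.0 and 69.0 CPM with 4-OHT in Cre-positive cells, against 98.3 and 91.7 CPM with ethanol. That is a fall of 0.44 on the log2 scale (SE 0.0435, adjusted p = 1.08e-07), beside 0.03 in Cre-negative cells, where all 4 libraries lay between 97.9 and 102.4 CPM. Orc6, the smallest subunit, was not called: it was at 152.6 and 152.2 CPM with 4-OHT and at 161.8 and 145.5 CPM with ethanol in Cre-positive cells.

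The helicase loaders Cdc6 and Cdt1 were not called, with changes of -0.14 and 0.04 on the log2 scale in Cre-positive cells. Among the 6 subunits of the MCM2-7 helicase the changes went both ways. Mcm4 was at 323.4 and 317.9 CPM with 4-OHT in Cre-positive cells, against 275.3 and 276.7 CPM with ethanol, and rose by 0.22 (SE 0.037, adjusted p = 9.09e-05). Mcm7 was at 104.1 CPM in both Cre-positive 4-OHT libraries, against 123.1 and 120.3 CPM with ethanol, and fell by 0.22 (SE 0.0383, adjusted p = 8.67e-05). Against ethanol these 2 subunits of 1 ring therefore moved apart, each with no overlap between the groups. In untreated Cre-positive cells Mcm4 was at 297.6 and 307.9 CPM, between its ethanol and 4-OHT levels, and 4-OHT against untreated was not called for it. Mcm7 was at 132.8 and 128.7 CPM untreated, above both 4-OHT libraries. Mcm2 fell by 0.13 in Cre-positive cells and by 0.16 in Cre-negative cells, at adjusted p of 0.0118 and 0.0149, the only member called in both, though the call was lost in Cre-positive cells without library 12 (-0.10) and in Cre-negative cells without library 5, 9 or 10 (-0.21 to -0.13 over all alternatives). Mcm3, Mcm5 and Mcm6 were not called (0.05, 0.00 and 0.01). Summed over its 6 subunits, MCM2-7 RNA was 1504 and 1530 CPM with 4-OHT and 1484 and 1529 CPM with ethanol in Cre-positive cells, so the summed levels overlapped.

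Both E-type cyclins, which activate Cdk2 at the start of S phase, fell in Cre-positive cells. Ccne1 was at 26.6 and 27.6 CPM with 4-OHT, against 32.6 and 33.1 CPM with ethanol, a fall of 0.28 (SE 0.0601, adjusted p = 0.000913). Ccne2 was at 73.4 and 68.6 CPM with 4-OHT, against 89.5 and 78.7 CPM with ethanol, a fall of 0.24 (SE 0.0544, adjusted p = 0.00136). Neither pair of groups overlapped, although the 2 ethanol libraries of Ccne2 were further apart than those of Ccne1.

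**Figure D2:**
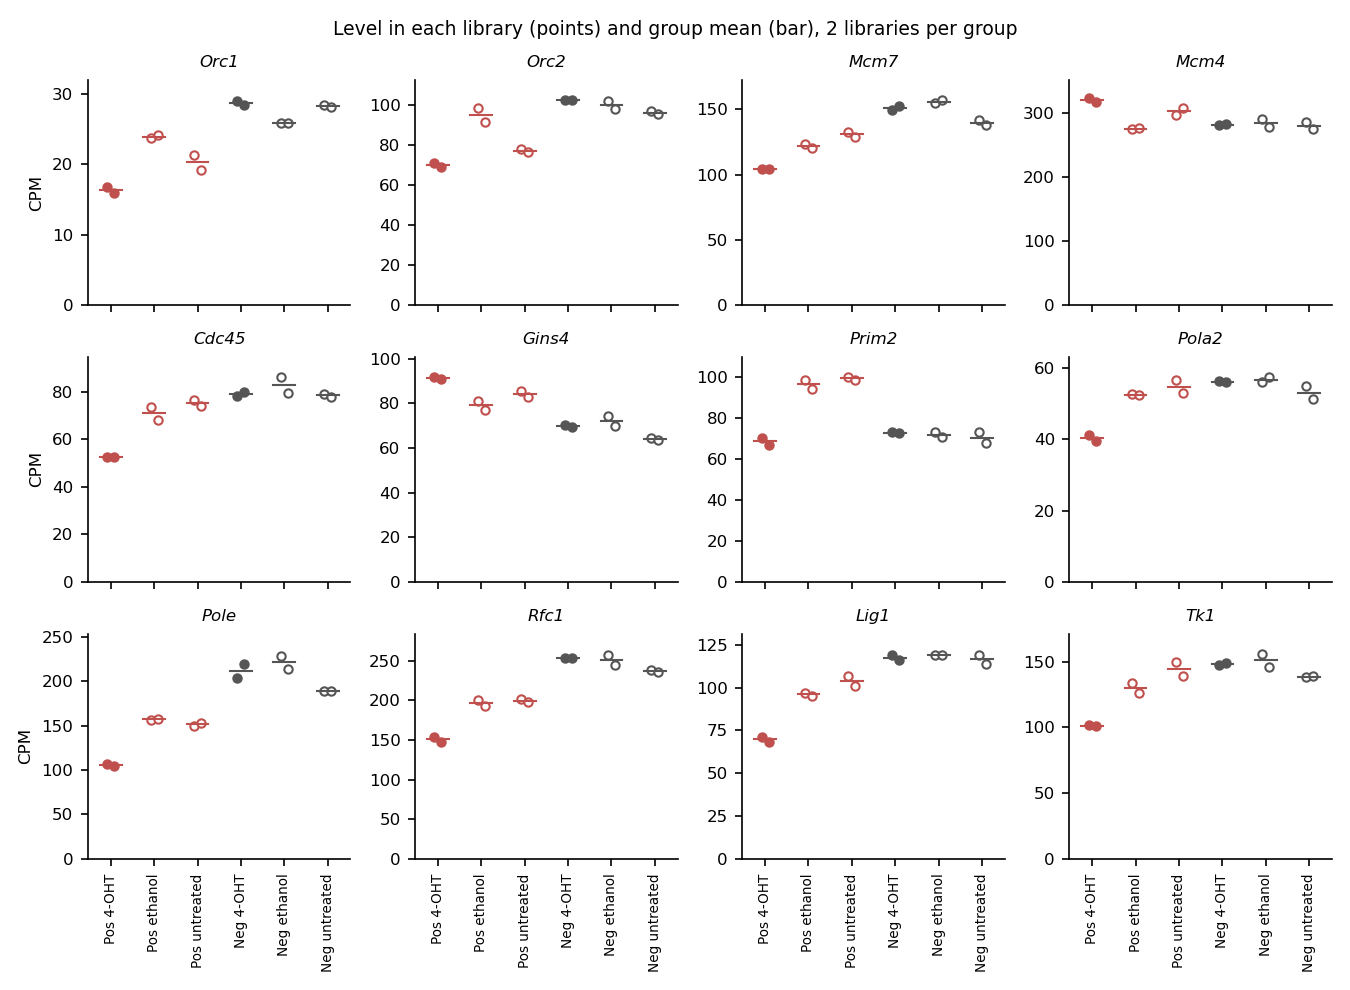
Level in CPM (y axis, from 0) of 12 members in each library (points) and group mean (bars), for Cre-positive cells in red and Cre-negative cells in grey, with filled points for 4-OHT, 2 libraries per group. Orc1, Cdc45, Pole, Rfc1, Lig1 and Tk1 are lowest in the Cre-positive 4-OHT libraries, and Mcm4 and Gins4 are highest there.

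Among the 22 fork genes, 10 fell and 2 rose in Cre-positive cells, beside 17.2% lower and 21.1% higher over all genes tested. Pole, the catalytic subunit of polymerase epsilon, lies on chromosome 5 (chr5:110286306-110337474, GRCm38) and had the largest change of all members: it was at 106.9 and 104.4 CPM with 4-OHT, against 156.6 and 157.6 CPM with ethanol. Its RNA fell by 0.57 on the log2 scale (SE 0.0434, adjusted p = 2.74e-09), or by 32.7%. In Cre-negative cells Pole was at 203.9 and 219.3 CPM with 4-OHT, against 228.9 and 213.8 CPM with ethanol, and the groups overlapped. The partner subunit Pole2 was at 23.1 and 20.8 CPM with 4-OHT in Cre-positive cells, against 24.7 and 22.8 CPM with ethanol (change -0.11, adjusted p = 0.235). Pold1 and Pold2, the catalytic and accessory subunits of polymerase delta, were not called either (-0.10 and -0.12, adjusted p = 0.0969 and 0.0522), although both 4-OHT libraries lay below both ethanol libraries.

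The primase and polymerase alpha genes were split in the same way. Prim2, the large primase subunit, was at 70.3 and 67.1 CPM with 4-OHT in Cre-positive cells, against 98.8 and 94.4 CPM with ethanol. It fell by 0.49 (SE 0.0455, adjusted p = 4.64e-08). In Cre-negative untreated, ethanol and 4-OHT cells Prim2 averaged 70.4, 72.0 and 73.0 CPM, near its Cre-positive 4-OHT level. Prim1, the catalytic primase subunit, was at 111.8 and 106.5 CPM, against 117.7 and 106.1 CPM, and was not called (-0.03, adjusted p = 0.629). Pola2 was at 41.2 and 39.5 CPM with 4-OHT, against 52.6 and 52.3 CPM with ethanol, and fell by 0.38 (SE 0.0515, adjusted p = 6.74e-06). Pola1, the catalytic subunit of polymerase alpha, was at 144.3 and 140.0 CPM with 4-OHT, against 164.5 and 161.2 CPM with ethanol, and fell by 0.20 (SE 0.0392, adjusted p = 0.000465). In Cre-negative cells Pola1 was at 189.3 and 190.7 CPM with 4-OHT and at 180.1 and 173.8 CPM with ethanol, in the other direction but not called (0.10, adjusted p = 0.129).

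Of the helicase activators, Cdc45, a core part of the active helicase, was at 52.4 and 52.6 CPM with 4-OHT in Cre-positive cells, against 73.5 and 68.4 CPM with ethanol. It fell by 0.43 (SE 0.0491, adjusted p = 6.22e-07). Mcm10, which helps start the helicase, was at 59.3 and 62.9 CPM, against 77.4 and 70.8 CPM, and fell by 0.28 (SE 0.0476, adjusted p = 9.09e-05). The 4 GINS subunits form 1 complex with Cdc45 and MCM2-7, yet they did not move as a unit. Gins4 rose by 0.21 (SE 0.0437, adjusted p = 0.000656), with 91.9 and 90.8 CPM under 4-OHT in Cre-positive cells, against 81.1 and 76.9 CPM with ethanol. Against ethanol, Gins1 rose by 0.26 (SE 0.0859, adjusted p = 0.0231), with 22.6 and 19.7 CPM, against 19.1 and 16.6 CPM. Untreated Cre-positive libraries held 20.6 and 22.1 CPM of Gins1, overlapping those with 4-OHT and above both ethanol libraries. The Gins1 call was lost with DESeq2 (0.24), with only the compared libraries in the fit (0.23), and without library 4 or library 11 (0.15 each). Gins2 and Gins3 were not called (-0.03 and -0.09).

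The clamp loader showed a similar mixture. Rfc1, its large subunit, was at 154.0 and 147.6 CPM with 4-OHT in Cre-positive cells, against 199.8 and 193.2 CPM with ethanol, and fell by 0.38 (SE 0.0392, adjusted p = 1.8e-07). Rfc5 fell by 0.23 (SE 0.0451, adjusted p = 0.00038), with 49.3 and 49.2 CPM, against 58.2 and 57.3 CPM. Rfc2 fell by 0.16 (adjusted p = 0.0026), while Rfc3 and Rfc4, also small subunits, were not called (0.02 and 0.06). Pcna, the sliding clamp itself, was at 171.6 and 171.2 CPM with 4-OHT and at 175.6 and 167.5 CPM with ethanol in Cre-positive cells (adjusted p = 0.983). Lig1, the ligase that joins Okazaki fragments, was at 71.3 and 68.4 CPM, against 97.0 and 95.1 CPM, and fell by 0.46 (SE 0.0433, adjusted p = 5.82e-08). Fen1, the flap nuclease that acts just before it, was at 4.90 and 5.23 CPM with 4-OHT, against 5.64 and 5.20 CPM with ethanol, and was not called (-0.10, SE 0.13).

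Of the 4 nucleotide supply genes, Tk1 alone was called, where 38.3% of all genes tested were called in either direction. This cytosolic thymidine kinase was at 101.5 and 100.6 CPM with 4-OHT in Cre-positive cells, against 133.8 and 125.7 CPM with ethanol, and fell by 0.36 (SE 0.0453, adjusted p = 2.44e-06). Rrm1 and Rrm2, the subunits of ribonucleotide reductase, which makes deoxyribonucleotides, overlapped between the groups. Rrm1 was at 448.8 and 429.7 CPM with 4-OHT, against 455.3 and 443.9 CPM with ethanol (change -0.03, adjusted p = 0.517). Rrm2 was at 163.0 and 172.9 CPM, against 168.6 and 184.5 CPM (change -0.07, adjusted p = 0.211), and passed the test only without ethanol library 3 (-0.16). Tyms, which makes thymidylate, was at 85.6 and 84.3 CPM, against 90.8 and 83.2 CPM (change -0.03, adjusted p = 0.61).

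In Cre-negative cells, 4-OHT against ethanol lowered 2 members, Mcm2 and Pold1, and raised 0 of 39, where 5.99% of all genes tested were called (3.33% higher, 2.65% lower). At an unadjusted p under 0.05, 2 members were higher (5.13%) and 5 lower (12.8%), beside 10.5% and 9.65% of all genes. DESeq2 also called 0 members higher and 2 lower, with 6.72% of all genes called. Pold1 was at 84.6 and 91.4 CPM with 4-OHT, against 101.4 and 101.9 CPM with ethanol, and fell by 0.21 (SE 0.0463, adjusted p = 0.0097). The count rested on single libraries: it was 0 without 4-OHT library 5 or ethanol library 10, 1 without ethanol library 9, and 4 without Cre-positive ethanol library 3, which is not in the comparison but shares the estimate of spread. The median member change was -0.03, beside 0.00 over all genes.

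The difference between these 2 effects, the Cre-dependent part of the response, was called for 16 members, 14 of them negative and 2 positive, where 28.3% of all genes were called (13.8% negative, 14.5% positive). It was largest for Orc1, at -0.70 (SE 0.0931, adjusted p = 1.14e-05), followed by Prim2 at -0.51 (SE 0.0657, adjusted p = 7.56e-06) and Pole at -0.51 (SE 0.0603, adjusted p = 2.98e-06). Orc2 (-0.47), Lig1 (-0.44), Rfc1 (-0.40), Cdc45 (-0.37), Pola2 (-0.36), Tk1 (-0.33), Pola1 (-0.30) and Mcm10 (-0.28) were also called negative. The 2 positive differences were those of Gins4, at 0.25 (SE 0.0633, adjusted p = 0.00501), and Mcm4, at 0.23 (SE 0.0525, adjusted p = 0.00214). The other 3, Ccne1 (-0.25), Rfc5 (-0.21) and Mcm7 (-0.18), lost the call without library 11, where they were at -0.22, -0.21 and -0.18, and under other alternatives. Ccne1 lost it also without library 4, 5, 6 or 9 (-0.27 to -0.24), Rfc5 without library 5 (-0.20) and Mcm7 without library 12 (-0.18). Ccne2 missed the threshold (-0.19, adjusted p = 0.0745) but passed without library 4 or library 9.

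Set against untreated cells, the Cre-positive 4-OHT libraries had 22 members lower and 1 higher, where 39.2% of all genes were called (18.2% lower, 21% higher). The 4-OHT libraries serve in both comparisons, so the comparisons are not independent. All 17 members lower against ethanol were among the 22, which is 77.3% of the 22, and the other 5 were Cdc6, Mcm5, Pold1, Pold2 and Pole2. Lig1 was at 107.0 and 100.7 CPM in Cre-positive untreated libraries, Prim2 at 100.2 and 98.7 CPM, Tk1 at 149.9 and 138.7 CPM and Cdc45 at 76.7 and 73.9 CPM, all above both Cre-positive 4-OHT libraries given earlier. Lig1 fell by 0.57, Prim2 by 0.53, Cdc45 by 0.52, Pole by 0.52 and Tk1 by 0.52. Orc1 and Orc2 differed less from untreated than from ethanol cells, with changes of -0.31 and -0.14, and the Orc2 call was lost without library 7 or library 12, as was that of Pole2, which was at -0.22 (-0.18 to -0.12 for Orc2 and -0.30 to -0.14 for Pole2 over all alternatives). The Orc2 call was lost too with no low-count filter, and the Pole2 call with DESeq2. Gins4 was the 1 member called higher (0.12, adjusted p = 0.0383), and that call was lost in 11 of the 12 fits that left out a library. The Gins4 call was lost also with DESeq2, library totals only, no low-count filter or only the libraries compared.

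Cre-negative 4-OHT libraries, set against untreated ones, had 9 members higher and 2 lower, where 19.2% of all genes were called (10.1% higher, 9.14% lower). Cdt1 rose by 0.28 (SE 0.0489, adjusted p = 0.000272), with 71.8 and 67.5 CPM with 4-OHT, against 57.4 CPM in both untreated libraries. Rfc3 rose by 0.24, Tyms by 0.21, Rfc5 by 0.20 and Pola1 by 0.19, and Cdc6 fell by 0.23, a call lost without library 1 or library 5 (-0.33 to -0.14 over all alternatives). The count was 11 in all, and was 6 without untreated library 2 and 7 without 4-OHT library 5 or 6. The difference between the 2 lines' responses against untreated was called negative for 23 members and positive for 0, where 23.8% of all genes were called (11.7% negative, 12% positive). At an unadjusted p under 0.05, 25 members were negative (64.1%) and 0 positive, beside 16.7% and 17.4% of all genes. DESeq2 called 21 members negative and 0 positive, with 22.4% of all genes called in either direction. Pole had the largest difference (-0.68, SE 0.061, adjusted p = 8.08e-08), followed by Tk1 (-0.61), Lig1 (-0.59) and Prim2 (-0.59), and the members' median was -0.24, beside 0.00 over all genes. Orc1, Cdt1, Mcm5, Ccne1, Ccne2, Pole2 and Rrm1 lost this call in 1 or more of the fits that left out a library. Their values ran from -0.42 to -0.13 over all alternatives. DESeq2 did not call Orc1 or Pole2, and with no low-count filter Mcm5, Pole2 and Rrm1 were not called.

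**Figure D3:**
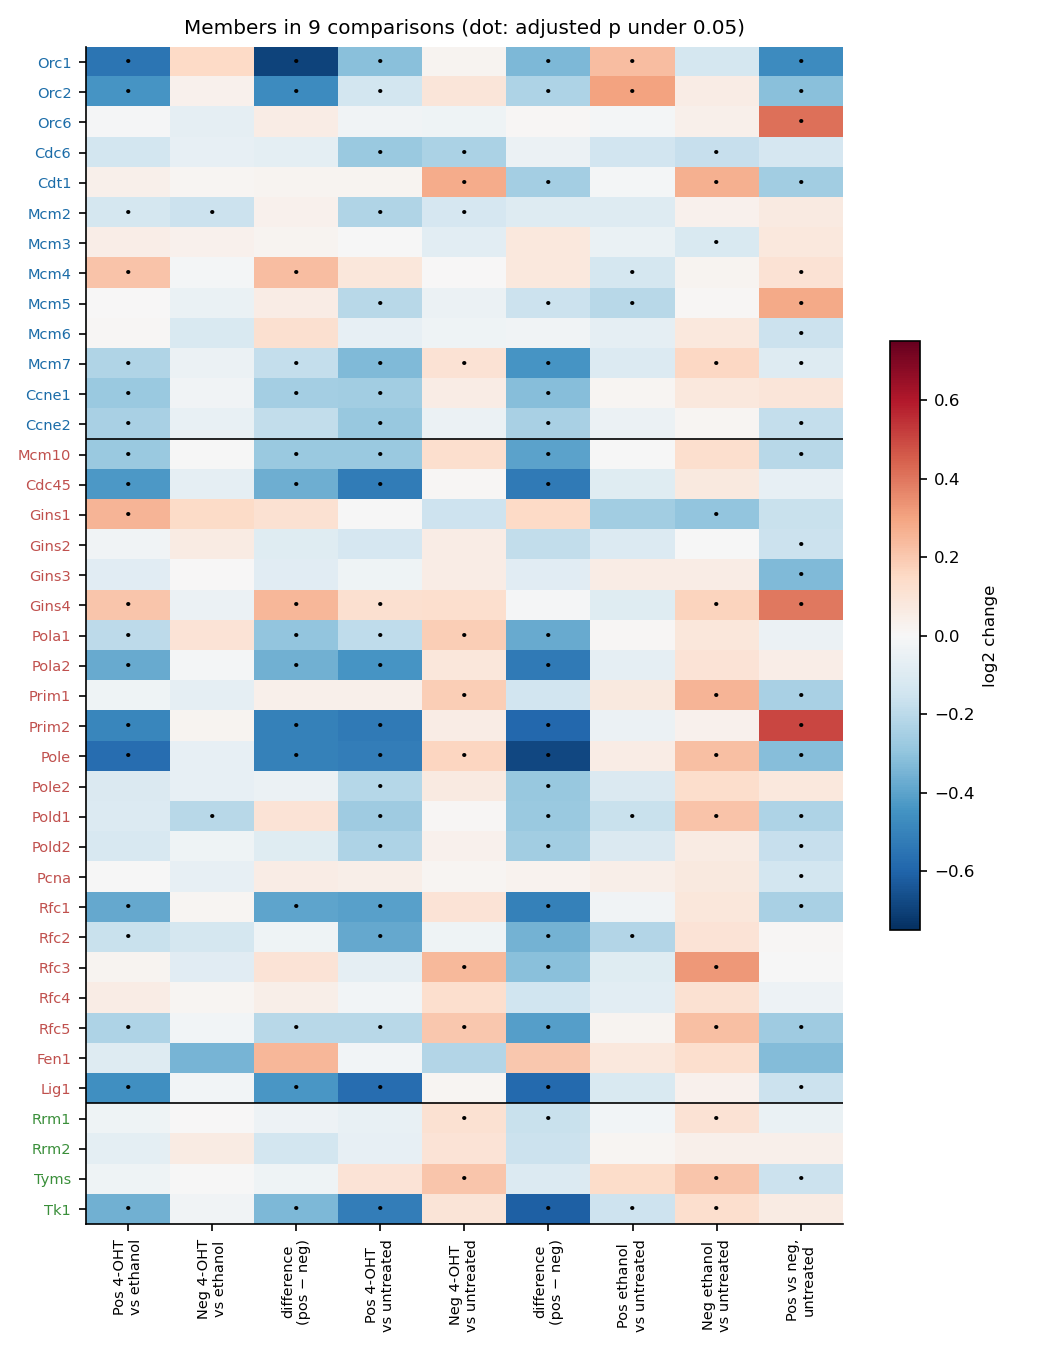
Change of each member on the log2 scale (colour, blue lower and red higher) in the 9 comparisons (columns; Pos, Cre-positive; Neg, Cre-negative; each difference column is the Cre-positive change minus the Cre-negative change), with a dot where the adjusted p is under 0.05. Members are in the order of their roles, with label colours for origin licensing (blue), replication fork (red) and nucleotide supply (green); the difference against untreated cells holds 23 dots on blue and 0 on red.

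Ethanol against untreated cells moved members too, and the same ethanol libraries serve as the comparison for 4-OHT. In Cre-positive cells, ethanol against untreated raised Orc1 by 0.23 and Orc2 by 0.30 and lowered 5 members, Mcm5 (by 0.21), Rfc2 (by 0.22), Pold1 (by 0.17), Tk1 (by 0.16) and Mcm4 (by 0.13), where 14.9% of all genes were called (8.11% higher, 6.84% lower). Orc2 was at 98.3 and 91.7 CPM with ethanol, against 77.8 and 76.4 CPM untreated, so its level with ethanol was the highest of the 3 treatments in Cre-positive cells. With library totals in place of TMM the split was 2 higher and 9 lower, and with no low-count filter 2 higher and 3 lower. TMM factors were 0.984 and 0.986 with ethanol and 0.998 and 1.008 untreated, so library totals move all genes down in this comparison. The share of all genes called under these settings is not given here, so the splits describe only how stable the calls are. The Orc1 call was lost without library 4 or 8 (0.17 to 0.32 over all alternatives). That of Mcm4 was lost without library 3, 4 or 8, and those of Pold1 and Tk1 without library 4 or 7. With only the libraries compared, all of these calls were lost too. DESeq2 did not call Orc1, Pold1 or Tk1, and with no low-count filter Mcm4 and Pold1 were not called. In Cre-negative cells, ethanol against untreated raised 11 members and lowered 3, where 24.5% of all genes were called (12.5% higher, 12% lower). Rfc3 rose by 0.33 (SE 0.0483, adjusted p = 2.93e-05), with 90.6 and 94.1 CPM with ethanol, against 74.4 and 72.9 CPM untreated. Cdt1 rose by 0.26, Prim1 by 0.25, Pole by 0.23, Rfc5 by 0.23, Tyms by 0.21 and Pold1 by 0.21, while Gins1 fell by 0.30, a call lost without library 1 or library 9 (-0.38 to -0.21 over all alternatives). With library totals only the split was 14 higher and 1 lower, and with no low-count filter 9 higher and 1 lower. Here the TMM factors were 1.019 and 1.024 with ethanol and 1.011 and 1.004 untreated, so library totals move all genes up. The share of all genes called under these settings is again not given.

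The lines differed before any treatment. Untreated Cre-positive cells had 18 members lower and 5 higher than untreated Cre-negative cells, where 49% of all genes were called (24.6% lower, 24.4% higher). Prim2 was higher, with 100.2 and 98.7 CPM in Cre-positive cells, against 73.0 and 67.7 CPM in Cre-negative cells (0.50, SE 0.0472, adjusted p = 9.72e-09). Orc6 (0.41), Gins4 (0.39), Mcm5 (0.28) and Mcm4 (0.11) were the others higher. The Mcm4 call was lost without library 2 or library 8 and with no low-count filter. Orc1 was at 21.4 and 19.3 CPM in Cre-positive cells, against 28.5 and 28.1 CPM in Cre-negative cells (-0.47, SE 0.0684, adjusted p = 5.6e-06). Gins3 (-0.33), Pole (-0.32), Orc2 (-0.32), Rfc5 (-0.27), Cdt1 (-0.26) and Rfc1 (-0.25) were lower as well. Of the neural markers, Sox2 was higher in the Cre-positive line: 30.1 to 41.6 CPM, against 8.88 to 12.5 CPM in Cre-negative libraries. The neural markers summed went the other way in untreated cells, at 158 and 151 CPM in Cre-positive and 167 and 160 CPM in Cre-negative libraries. The part of these markers in the differences between the lines was not tested.

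Across the whole set of libraries, 18 members had both Cre-positive 4-OHT libraries below the other 10, and 2 members, Mcm4 and Gins4, had both above the other 10. These are 46.2% and 5.13% of members, beside 13.3% below and 16.8% above over all genes tested. Summed over all 39 members, Cre-positive cells held 4283 and 4206 CPM with 4-OHT, 4655 and 4485 CPM with ethanol, and 4774 and 4701 CPM untreated. In Cre-negative cells the sum was 4978 and 5045 CPM with 4-OHT, 5194 and 5072 CPM with ethanol, and 4896 and 4791 CPM untreated. The fork genes averaged 1513 CPM with 4-OHT against 1745 CPM with ethanol in Cre-positive cells, the origin licensing genes 1938 CPM against 1982 CPM and the nucleotide genes 793 CPM against 843 CPM. The fork and nucleotide sums did not overlap between 4-OHT and ethanol, and the licensing sums did; of the 4 nucleotide genes only Tk1 was called.

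**Figure D4:**
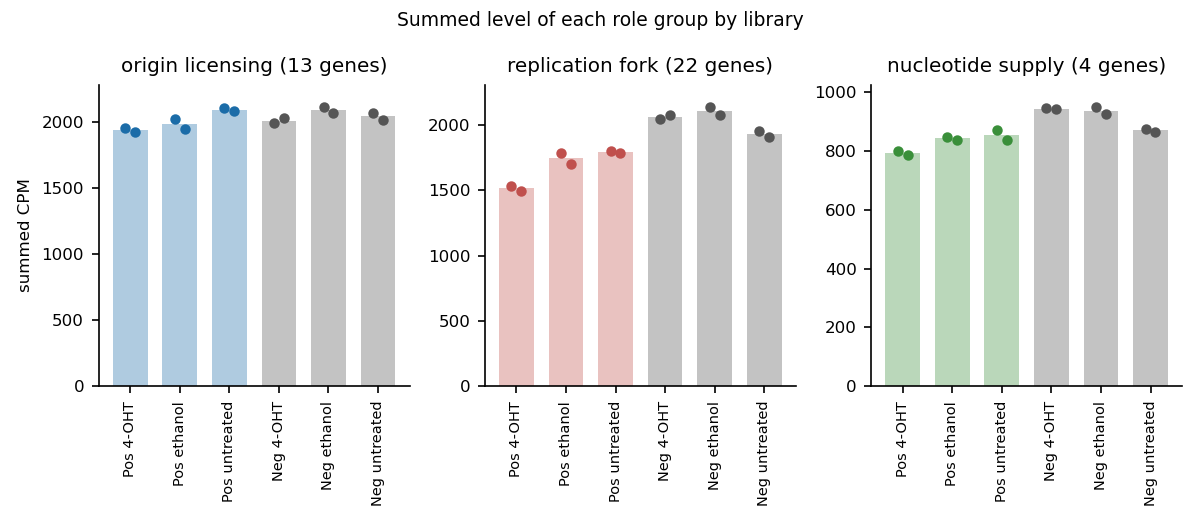
Summed CPM (y axis, from 0) of the origin licensing (13), replication fork (22) and nucleotide supply (4) genes by group, with bars for the mean and points for the 2 libraries; Pos, Cre-positive (coloured) and Neg, Cre-negative (grey). The fork sum is lowest in Cre-positive 4-OHT libraries, between 1497 and 1530 CPM, and the licensing sums overlap between 4-OHT and ethanol.

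Levels per length, by which genes can be compared, depended on the length used, since merged exons of some members are far longer than their longest protein-coding transcript. In Cre-positive 4-OHT cells Mcm4 was at 89.3 CPM per kilobase by either length, Pcna at 71.4 by merged exons and 113 by transcript, Orc6 at 61.7 and 104, and Rrm1 at 39.9 and 110. The order among these 4 therefore differs between the lengths. Pola2 was at 4.86 by merged exons and 16.7 by transcript. Fen1 (2.09 and 2.13) and Orc1 (4.71 and 5.44) had the lowest levels among the members by both lengths. Within the GINS complex, Gins4 was at 67.7 CPM per kilobase of merged exon, Gins1 at 14.0, Gins3 at 7.45 and Gins2 at 6.18, in the same order as by transcript length.

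Some members share sequence with other genes, so their counts are less certain. Pcna-ps2 matches the Pcna transcript at 99.2% identity over 781 bases and was itself at a mean of 204 CPM, beside 178 CPM for Pcna, so the 2 cannot be told apart here. Rfc5 matches Gm12870 (96.2% identity, 21.5 CPM), which fell by 0.39 with 4-OHT in Cre-positive cells, more than Rfc5 did. Cdc6 matches Gm9430 (95.2%, 7.37 CPM) and Mcm4 matches Gm9577 (91.1%, 7.20 CPM). Mcm7 and Tyms match Gm5487 and Tyms-ps, which are not among the symbols of the table. The library kit keeps strand, but the strand setting of the counting was not stated: on the opposite strand, exons of Gm10143 and Tmem258 cover 2039 of the 2422 exonic bases of Fen1, those of Gse1 cover 2758 of the 4097 of Gins2, and Orc2, Ccne2 and Rfc5 share bases with Nif3l1, Ints8 and Wsb2. Wsb2 rose by 0.31 in Cre-positive cells with 4-OHT, Ints8 rose by 0.30 in Cre-negative cells with 4-OHT, and Nif3l1 was called in neither.

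In their longest protein-coding transcript the 17 members lower in Cre-positive cells with 4-OHT against ethanol had a median of 17 exons, the 19 not called had 10, and the 3 higher had 8, beside 9 for all protein-coding genes tested. Spearman's correlation of exon number with the log2 change was -0.50 over the 39 members and -0.27 over 12436 protein-coding genes. In Cre-negative cells it was 0.04 and 0.02. These correlations are descriptions across genes, which share libraries and are not independent, and gene span gave -0.45 over the members and -0.15 over all. Pole, with 49 exons, fell most, whereas Tk1, with 7, fell by 0.36, and Pold1, with 27, was not called.

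**Figure D5:**
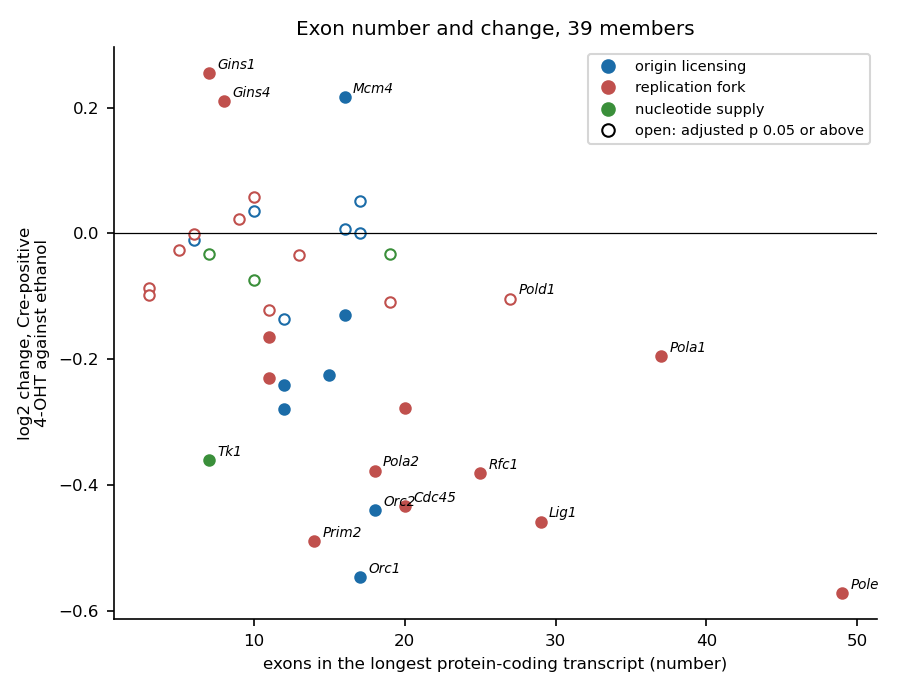
Number of exons in the longest protein-coding transcript (x axis) and log2 change with 4-OHT against ethanol in Cre-positive cells (y axis) for the 39 members, coloured by role, open where the adjusted p is 0.05 or above. Pole lies at 49 exons and -0.57, and the 3 members above 0.2 have 16 exons or fewer.

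Promoters were read for 31 of the 39 members from RefSeq (GRCm38.p6), as 250 bases before to 50 after each start, 37 windows in all. An E2F motif, spelled TTTCCCGC, TTTGGCGC, TTTCGCGC or TTTGCCGC and searched on both strands, was in 13 of these 37 (35.1%), beside 2.26% of 32851 windows of all genes and 3.82% of 13287 windows of tested genes. It was present for 4 of the 13 matched members that fell with 4-OHT in Cre-positive cells and for 9 of the 18 that were not called, and none of the members that rose had a matched window. The CCAAT box was in 56.8% of members' windows, beside 37.4% of all windows and 37.6% of those of tested genes. TTTGAA, the core of the CHR element, was in 13.5% of members' windows, beside 17.9% of all and 12.3% of those of tested genes. The sequences below, 5′ to 3′ with E2F matches in capitals, show that the motif is found both beside genes that fell (Orc1, Pola1) and beside genes that were not called (Mcm5, Mcm6). The 30 bases around the Orc1 match are chr4:108579416-108579445 on the plus strand. The 200 bases before the start are chrX:93632156-93632355 (minus strand) for Pola1, chr8:75109309-75109508 (plus strand) for Mcm5 and chr1:128359706-128359905 (minus strand) for Mcm6. In Mcm5 and Mcm6 a match on 1 strand overlaps a match on the other, at 153 and 110 bases before the start.
Orc1: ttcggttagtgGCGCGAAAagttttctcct
Pola1: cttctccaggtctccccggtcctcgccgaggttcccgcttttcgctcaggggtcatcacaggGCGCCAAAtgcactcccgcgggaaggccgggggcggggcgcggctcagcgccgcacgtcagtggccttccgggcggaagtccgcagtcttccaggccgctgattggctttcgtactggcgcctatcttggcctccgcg
Mcm5: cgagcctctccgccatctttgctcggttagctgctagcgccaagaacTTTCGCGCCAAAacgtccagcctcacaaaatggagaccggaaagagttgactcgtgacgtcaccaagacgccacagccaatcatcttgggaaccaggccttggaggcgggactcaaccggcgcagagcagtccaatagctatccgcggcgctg
Mcm6: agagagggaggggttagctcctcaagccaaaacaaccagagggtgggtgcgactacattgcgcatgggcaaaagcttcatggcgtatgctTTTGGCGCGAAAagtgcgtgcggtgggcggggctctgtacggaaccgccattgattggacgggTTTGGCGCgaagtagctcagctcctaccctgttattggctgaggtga

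Further genes of replication were set beside the members for 4-OHT against ethanol in Cre-positive cells, where 17.2% of all genes tested were lower and 21.1% higher. Of 15 further origin licensing and firing genes, 9 fell and 1 rose, with a median change of -0.16 on the log2 scale. Donson, which helps assemble the helicase, fell by 0.46 and Orc3 fell by 0.42, while Cdc7, a kinase that fires origins, fell by 0.26, and Ticrr fell by 0.23. Of 25 further fork genes, 13 fell and 2 rose (median -0.14): the nuclease Dna2 fell by 0.50, the ribonuclease H2 subunit Rnaseh2a by 0.43 and Wdhd1 by 0.39, while Pold4, a small subunit of polymerase delta, rose by 0.41. Of 12 further nucleotide genes, 3 fell and 4 rose (median 0.08), among them the deaminase Dctd, which fell by 0.39, the folate enzyme Shmt1, which fell by 0.23, and the nucleoside diphosphate kinase Nme2, which rose by 0.26.

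The cell-cycle lists beside them behaved as follows in the same comparison, with 17.2% of all genes tested lower and 21.1% higher. Of 25 G2 and mitosis genes, 16 fell and 2 rose (median -0.13), among them Kif23, which fell by 0.55, Ccnb2 by 0.51, Cdc20 by 0.38 and Mki67 by 0.35. In Cre-negative cells given 4-OHT, against untreated cells, 21 of these 25 rose (84%) and 0 fell, beside 10.1% higher and 9.14% lower over all genes. Cre-positive 4-OHT against untreated cells had 4 higher (16%) and 8 lower (32%), beside 21% and 18.2% over all genes. Of the 8 E2F genes, 5 fell with 4-OHT against ethanol in Cre-positive cells: E2f8 by 0.48, E2f4 by 0.46, E2f5 by 0.35, E2f7 by 0.28 and E2f3 by 0.19. E2f1, an activator of S phase genes, was not called (-0.11).

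Markers of other cell types moved with this comparison as well. Of 6 neural markers 4 were tested, 1 rising and 2 falling, with sums of 142 and 143 CPM with 4-OHT, against 184 and 187 CPM with ethanol, Gfap and Rbfox3 being near 0. Of 5 skeletal muscle markers the 2 tested, Des and Acta1, rose, with sums of 9.94 and 9.96 CPM, against 7.15 and 7.44 CPM, while Myod1, Myog and Myh3 stayed at or near 0. Of 5 endothelial markers 3 were tested and Tek rose, with sums of 1.76 and 2.06 CPM, against 0.884 and 0.905 CPM, Cdh5 being at or near 0. Their part in the members' changes was not tested. Fibroblast markers summed to 7052 and 7092 CPM with 4-OHT and to 6987 and 7520 CPM with ethanol, and the groups overlapped.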

How the data were processed

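The deposited values are expected counts by gene symbol, and all are whole. Per the labels' protocols the libraries are paired-end, strand-keeping (TruSeq) and depleted of ribosomal RNA. The submitters' processing notes list GRCm38 with edgeR, RSEM 1.2.30, STAR 2.5.2a and cutadapt 1.11; annotation, strand setting and rounding were not stated. The members and the gene lists were chosen with earlier results of these data known.

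Tests used edgeR 4.0.16 (R 4.3.3) on all 12 libraries, each group having its own mean: filterByExpr left 17609 genes, TMM factors (trimmed mean of M values) were 0.972 to 1.02, and the dispersion was 0.00119 (coefficient of variation 3.44%). P-values are from 2-sided quasi-likelihood F tests with Benjamini-Hochberg adjustment across the 17609 genes, and adjusted p under 0.05 makes a call. The SE is the log2 change over the root of F. CPM is per TMM-scaled total. Paired libraries of a group differed by more than sampling noise (chi-square per degree of freedom 2.37 to 4.60), so none was treated as a copy. The code was tested on simulated data.

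Alternatives were DESeq2 1.42.0, RLE factors, library totals only, no low-count filter, only the libraries compared, and leaving out each library. By rule, per-library values cover the 4 nucleotide genes and, in each other role, up to 6 called members with the largest change in Cre-positive 4-OHT against ethanol, up to 3 called higher, and up to 3 more called in the Cre-dependent part. From other lists up to 4 called genes are named; 1 of them is not reported here. Per-library values of further members, and E2f1, E2f3, marker genes and genes sharing sequence with members, were chosen after their values were seen. Copies were sought with blastn 2.17.0 in GENCODE M21 transcripts (at least 90% identity over 300 bases and 25% of the transcript).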

Additional observations from a re-analysis of the deposited data

Results flagged for a closer look

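A difference between the 4-OHT responses of the 2 lines, tested as an interaction in edgeR's quasi-likelihood model, marked 39 values on the log2 scale, each the Cre-positive change minus the Cre-negative change. Against ethanol the differences were -0.70 for Orc1, -0.47 for Orc2, 0.23 for Mcm4, -0.18 for Mcm7, -0.25 for Ccne1, -0.28 for Mcm10, -0.37 for Cdc45, 0.25 for Gins4, -0.30 for Pola1, -0.36 for Pola2, -0.51 for Prim2, -0.51 for Pole, -0.40 for Rfc1, -0.21 for Rfc5, -0.44 for Lig1 and -0.33 for Tk1. Against untreated cells the licensing genes differed by -0.34 for Orc1, -0.23 for Orc2, -0.26 for Cdt1, -0.16 for Mcm5, -0.44 for Mcm7, -0.32 for Ccne1 and -0.24 for Ccne2. The fork genes differed by -0.40 for Mcm10, -0.53 for Cdc45, -0.38 for Pola1, -0.53 for Pola2, -0.59 for Prim2, -0.68 for Pole, -0.28 for Pole2, -0.28 for Pold1, -0.26 for Pold2, -0.51 for Rfc1, -0.35 for Rfc2, -0.31 for Rfc3, -0.41 for Rfc5 and -0.59 for Lig1. The nucleotide genes differed by -0.17 for Rrm1 and -0.61 for Tk1. The 4-OHT libraries are in both sets of differences, which are therefore not independent. With 2 libraries per group, single libraries could not be tested as outliers.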

How the results depend on the processing

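Of 20 members called in Cre-positive 4-OHT against ethanol, 18 kept the call under all 17 alternatives, as did 13 of 16 in the Cre-dependent part, 20 of 23 against untreated and 16 of 23 in the Cre-dependent part against untreated; no called member changed sign under any of them. Leaving out each library gave 19 to 23 members for Cre-positive 4-OHT against ethanol, 13 to 17 for its Cre-dependent part, 20 to 23 against untreated, 18 to 24 for the Cre-dependent part against untreated and 19 to 23 for untreated Cre-positive against Cre-negative cells. It gave 0 to 4 for Cre-negative 4-OHT against ethanol, 6 to 12 for Cre-negative 4-OHT against untreated, 4 to 9 for Cre-positive ethanol against untreated and 8 to 15 for Cre-negative ethanol against untreated. Cre-negative 4-OHT against ethanol had 4 members called with library totals only and 4 with only the libraries compared, beside 2. Cre-positive ethanol against untreated had 4 with DESeq2, 11 with library totals only and 3 with only the libraries compared, beside 7. The cause was not tested. The counts of members in this paragraph stand without the share of all genes called under the same alternative, so they describe only how stable the calls are. Leaving out each library moved Tyms between -0.097 and 0.0061 (4-OHT against ethanol, Cre-positive) and between -0.093 and 0.018 (Cre-dependent part), the positive values being without Cre-positive ethanol library 3; it was called in neither. No paired analysis was possible because the groups share no replicate numbers. In Cre-positive 4-OHT against ethanol the SE ran from 0.0358 (Mcm3) to 0.13 (Fen1) on the log2 scale, and -0.13 (Mcm2) was the smallest change called there.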
